A study of Homo sapiens with 12 samples.

Results

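The genes of the cytosolic ribosomal proteins were compared between palbociclib and dimethyl sulfoxide (DMSO) in libraries labelled as 2 human prostate cancer cell lines. The family was taken by name and biotype, as protein-coding genes on an autosome or the X chromosome named RPL, RPS or RPLP with a number and an optional suffix A, L, L1, P or X, together with RPSA and without the RPS6K kinases. It holds 84 genes, 52 of the large and 32 of the small subunit, of 57167 genes in the table labelled Du145, and each of the 84 has the same identifier in the table labelled C42, which lists 61860 genes. The rule for membership uses no expression value, but the members were chosen with earlier results of these data known.

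Palbociclib is an inhibitor of the cell cycle kinases CDK4 and CDK6, and DMSO is its solvent. By their labels, C42 cells had palbociclib (3 libraries) or DMSO (2 libraries). Du145 cells had palbociclib (3 libraries) or DMSO (3 libraries). C42 and Du145 are the labels' spellings of C4-2 and DU145. All cells were grown in RPMI-1640 medium with fetal bovine serum, and neither the dose of palbociclib nor the time of exposure is stated in the labels. Whether the libraries of 1 group are from separate cultures is not said either, so p-values reflect only the spread between libraries, which may be technical.

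Ribosomal proteins coat and hold together the ribosomal RNA of the large and small subunits, and each cytosolic ribosome needs about equal amounts of nearly all of them. Their mRNAs typically begin with a cytosine followed by an unbroken run of pyrimidines, the terminal oligopyrimidine (TOP) start, through which mTORC1 and the RNA-binding protein LARP1 regulate their translation. A few family members (RPL3L, RPL7L1, RPL10L, RPL22L1, RPL26L1, RPL39L and RPS27L) are paralogs with a parent gene of nearly the same name, several of which are known for expression limited to certain tissues or conditions.

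The starts of 9 members are shown because the results below separate parent genes from paralogs, and because RPS26 and RPS12 had the largest falls in C42 and Du145. Each line gives 10 bases before and 20 bases from the transcript start listed by RefSeq for GRCh38.p14, and capitals mark a run of pyrimidines that opens with C at the start and has at least 4 more pyrimidines. The windows are RPS12 at chr6:132814559-132814588 on the plus strand, RPS26 at chr12:56041908-56041937 on the plus strand, RPS27 at chr1:153990752-153990781 on the plus strand, RPS27L at chr15:63157458-63157487 on the minus strand, RPL26 at chr17:8383174-8383203 on the minus strand, RPL26L1 at chr5:172958719-172958748 on the plus strand, RPL22 at chr1:6199576-6199605 on the minus strand, RPL22L1 at chr3:170870176-170870205 on the minus strand and RPL7L1 at chr6:42879606-42879635 on the plus strand.
RPS12: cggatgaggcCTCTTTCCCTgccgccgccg
RPS26: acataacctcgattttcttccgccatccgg
RPS27: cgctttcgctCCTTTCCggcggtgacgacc
RPS27L: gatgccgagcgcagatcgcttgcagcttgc
RPL26: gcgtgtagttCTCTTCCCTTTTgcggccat
RPL26L1: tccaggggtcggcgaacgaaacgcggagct
RPL22: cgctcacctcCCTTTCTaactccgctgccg
RPL22L1: ccgtagcttcCTCTCTgctctcgcggccga
RPL7L1: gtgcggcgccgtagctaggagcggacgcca
The parent genes RPS27, RPL26 and RPL22 begin with such a run at the listed start, and so does the paralog RPL22L1. RPS27L, RPL26L1 and RPL7L1 do not. RPS26 has no such run at the start RefSeq lists, which says nothing about starts it does not list.

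Of the 84 members, 67 matched a RefSeq promoter entry by symbol, and 47 of these 67 (70.1%) had the pyrimidine run at a listed start, against 1357 of 27238 other genes (4.98%). The letters CCGGAAGT, an ETS-type motif, stood on either strand within the 300 bases from 250 before to 50 after a listed start in 16.4% of matched members and 4.92% of other genes, and the YY1-type letters AAGATGGC in 10.4% and 3.51%. Members with no entry included RPL23, RPL23A, RPL30, RPL37, RPL39L, RPL3L, RPL5, RPL7, RPL8, RPS15A, RPS2 and RPS20.

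Libraries labelled C42 held 2608851 to 3489659 counts and libraries labelled Du145 held 16108999 to 16674393. A further C42 DMSO library is deposited with 0 counts for every gene and was left out. Of 5 luminal prostate markers (KLK2, KLK3, ACP3, FOLH1 and HOXB13), only 1 had any count in C42 libraries. It summed to 0 to 0.767 counts per 1000000 counts of the library (CPM) with palbociclib and 0.573 to 1.66 CPM with DMSO. These libraries are therefore named by their label here, and whether the label names the right cell line was not tested. In Du145 libraries 2 of the 5 had counts. The 4 mesenchymal markers (VIM, FN1, SPARC and COL6A3) reached 24469 to 24757 CPM in C42 palbociclib libraries and 26833 to 26862 CPM in C42 DMSO libraries, and in Du145 273 to 296 CPM and 325 to 339 CPM. Du145 libraries numbered 3 stood apart from the other libraries of their group: pairs that include one had a chi-square per gene of 5.41 to 8.34, against 2.36 and 2.37 for the pairs without one. C42 pairs had 1.14 to 1.18, where counting noise alone gives about 1.

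Ribosomal protein genes took a smaller share of the counts after palbociclib in both lines. In C42 libraries they held 2.88, 2.84 and 2.87% of all counts with palbociclib and 3.18 and 3.20% with DMSO. In Du145 libraries they held 5.23, 5.33 and 5.17% with palbociclib and 6.11, 6.29 and 6.08% with DMSO. The groups did not overlap in either line, and the palbociclib mean was 0.897 of the DMSO mean in C42 and 0.851 of it in Du145. In bulk libraries a smaller share cannot be told apart from other RNA taking a larger one, nor fewer cells of a kind from less RNA per cell.

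Both subunits took part in this. Large subunit genes held 1.80 to 1.82% of counts with palbociclib and 2.02 to 2.05% with DMSO in C42 libraries, and 3.23 to 3.33% against 3.78 to 3.91% in Du145 libraries. Small subunit genes held 1.04 to 1.06% with palbociclib and 1.16% with DMSO in C42 libraries, and 1.94 to 2.01% against 2.30 to 2.38% in Du145 libraries. The ratio of large to small subunit counts averaged 1.72 ± 0.014 with palbociclib (SD, n = 3) and 1.76 ± 0.022 with DMSO (n = 2) in C42, and 1.66 ± 0.0026 and 1.64 ± 0.0053 (n = 3 each) in Du145. The palbociclib ratio was 0.981 of the DMSO ratio in C42 and 1.01 of it in Du145. Mitochondrially encoded genes, listed at 0 in the C42 table, held 3.07 to 3.37% with palbociclib and 4.40 to 4.92% with DMSO in Du145 libraries; without them in the total, the ribosomal protein share in Du145 differed by -1.05 percentage points (palbociclib minus DMSO).

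The 4 epithelial markers (KRT8, KRT18, CDH1 and EPCAM) reached 409 to 444 CPM with palbociclib and 1044 to 1053 CPM with DMSO in C42, and 1675 to 1771 CPM and 2307 to 2500.2 CPM in Du145. The 3 leukocyte markers PTPRC, CD3E and CD14 summed to 0.692 to 1.92 CPM with palbociclib and 1.72 to 1.99 CPM with DMSO in C42, and to 3.15 to 4.11 CPM and 0.305 to 0.372 CPM in Du145. Hemoglobin genes HBA1 and HBB summed to 12.1 to 17.5 CPM with palbociclib and 16.05 to 18.9 CPM with DMSO in C42, and to 0 to 0.240 CPM and 0.124 to 0.248 CPM in Du145. The groups do not overlap for the epithelial sum in either line and for the leukocyte sum in Du145, and they overlap for the leukocyte sum in C42 and the hemoglobin sum in both lines. The Du145 leukocyte sum is CD14 alone, as PTPRC and CD3E had 0 CPM there. The epithelial sums are almost all KRT8 and KRT18. CDH1 and EPCAM averaged 0.568 and 1.47 CPM with palbociclib and 0.309 and 0.739 CPM with DMSO in C42. In Du145 CDH1 and EPCAM averaged 1.04 and 0.685 CPM with palbociclib and 1.95 and 1.09 CPM with DMSO. The part of these markers in the ribosomal protein result was not tested.

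**Figure D1:**
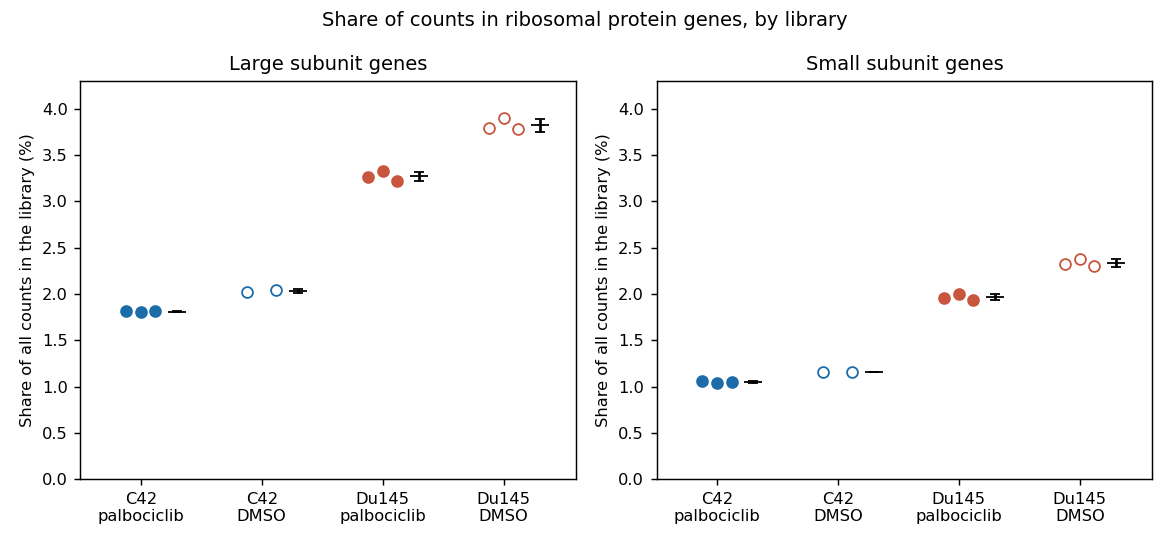
Share of all counts (%) in the 52 large subunit genes (left) and the 32 small subunit genes (right), by library. Filled points are palbociclib libraries, open points DMSO libraries, and the bars to the right of each group are its mean ± SD; every palbociclib library lies below every DMSO library of its line for both subunits.

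In C42 cells most family members were lower with palbociclib by a modest amount. Of 78 members with enough counts to test, 54 were lower and 2 higher at an adjusted p under 0.05 with edgeR's quasi-likelihood test, and 22 did not pass. Over all 11943 genes tested in C42, 26.7% were called lower and 25.3% higher. The members' median log2 fold change was -0.22, against 0.0016 over all genes tested, and none reached a 2-fold change. By subunit, 34 of 49 large subunit genes were lower and 1 higher (median -0.25), and 20 of 29 small subunit genes were lower and 1 higher (median -0.19).

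RPS26, a small subunit protein at the mRNA exit channel (chr12:56041351-56044697, plus strand), had 72.3, 78.6 and 73.1 CPM in palbociclib libraries, against 126 and 141 CPM in DMSO libraries. Its groups lie far apart, and the fall was the family's largest in C42 (log2 fold change -0.88 ± 0.077 SE, edgeR adjusted p = 5.43e-17). RPL18, a large subunit protein (chr19:48615328-48619536, minus strand), had 204, 208 and 192 CPM in palbociclib libraries, against 280.3 and 278 CPM in DMSO libraries, a fall without overlap (log2 fold change -0.52 ± 0.052 SE, edgeR adjusted p = 1.90e-14). RPS15, a protein of the small subunit head (chr19:1438358-1440494, plus strand), had 214, 215 and 213 CPM in palbociclib libraries, against 282 and 308 CPM in DMSO libraries. It also fell without overlap (log2 fold change -0.51 ± 0.051 SE, edgeR adjusted p = 3.71e-14).

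RPL26 and RPL22L1 complete the 5 largest falls in C42 and had low counts. The abundant members RPL7A, RPL8 and RPL3, at 682, 848 and 741 CPM over all C42 libraries, followed with log2 fold changes of -0.49, -0.48 and -0.45. RPL26, a large subunit protein, had 9.69, 12.6 and 12.4 CPM in palbociclib libraries, against 14.3 and 18.6 CPM in DMSO libraries (log2 fold change -0.54 ± 0.21 SE, edgeR adjusted p = 0.0228). Its groups are apart, but the spread within them is wide for counts this low. The adjusted p was 0.113 without palbociclib replicate 1, 0.272 without DMSO replicate 2 and 0.198 with DESeq2.

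RPS27 and RPL15 were the only members called higher in C42. RPS27, a zinc-binding small subunit protein (chr1:153990755-153992155, plus strand), had 776, 704 and 749 CPM in palbociclib libraries, against 619 and 625 CPM in DMSO libraries. Every palbociclib library lay above both DMSO libraries (log2 fold change 0.21 ± 0.036 SE, edgeR adjusted p = 8.57e-07). RPL15, of the large subunit (chr3:23916545-23924374, plus strand), had 1125, 1074 and 1129 CPM in palbociclib libraries, against 977 and 985 CPM in DMSO libraries, again without overlap (log2 fold change 0.13 ± 0.032 SE, edgeR adjusted p = 0.00024). Both calls were kept under every alternative tried.

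In Du145 cells most members that were called were again lower with palbociclib. Of 82 members tested, 44 were lower, 3 higher and 35 not called, where 29.2% of all 15361 genes tested were called lower and 28.8% higher. The members' median was -0.17, against -0.0074 over all genes tested, and none reached a 2-fold change. Large subunit genes gave 27 lower and 2 higher of 50 (median -0.17), and small subunit genes 17 lower and 1 higher of 32 (median -0.16). Without both libraries numbered 3, 57 members were called lower and 6 higher. Of all genes tested 61% were then called, against 58.1% with all libraries.

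RPS12, a small subunit protein known in Drosophila for its part in cell competition (chr6:132814441-132817564, plus strand), had 378, 375 and 329 CPM in palbociclib libraries, against 577, 595 and 532 CPM in DMSO libraries. The 3 palbociclib libraries lie well below the 3 DMSO libraries (log2 fold change -0.63 ± 0.066 SE, edgeR adjusted p = 2.39e-07). RPL4, which lines the peptide exit tunnel (chr15:66498015-66524532, minus strand), had 966, 998 and 884 CPM in palbociclib libraries, against 1349, 1416 and 1382 CPM in DMSO libraries, also without overlap (log2 fold change -0.52 ± 0.059 SE, edgeR adjusted p = 6.67e-07). RPS18, of the small subunit head (chr6:33272010-33276510, plus strand), had 803, 789 and 724 CPM in palbociclib libraries, against 1119.7, 1152 and 1038 CPM in DMSO libraries. It fell too (log2 fold change -0.49 ± 0.060 SE, edgeR adjusted p = 1.51e-06).

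RPL36, a large subunit protein (chr19:5674947-5691876, plus strand), had 259, 289 and 283 CPM in palbociclib libraries, against 397, 404 and 385 CPM in DMSO libraries in Du145, and its groups were apart (log2 fold change -0.49 ± 0.063 SE, edgeR adjusted p = 2.83e-06). RPS26, the largest fall in C42, was among the 5 largest in Du145 as well, with 173, 161 and 149.9 CPM in palbociclib libraries, against 219, 229 and 208 CPM in DMSO libraries (log2 fold change -0.42 ± 0.068 SE, edgeR adjusted p = 4.47e-05). The same member thus stood near the low end in both lines, although other members that fell most in C42, RPL18 and RPS15, had log2 fold changes of only -0.068 and -0.024 in Du145, which did not pass the test (adjusted p = 0.353 and 0.761).

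**Figure D2:**
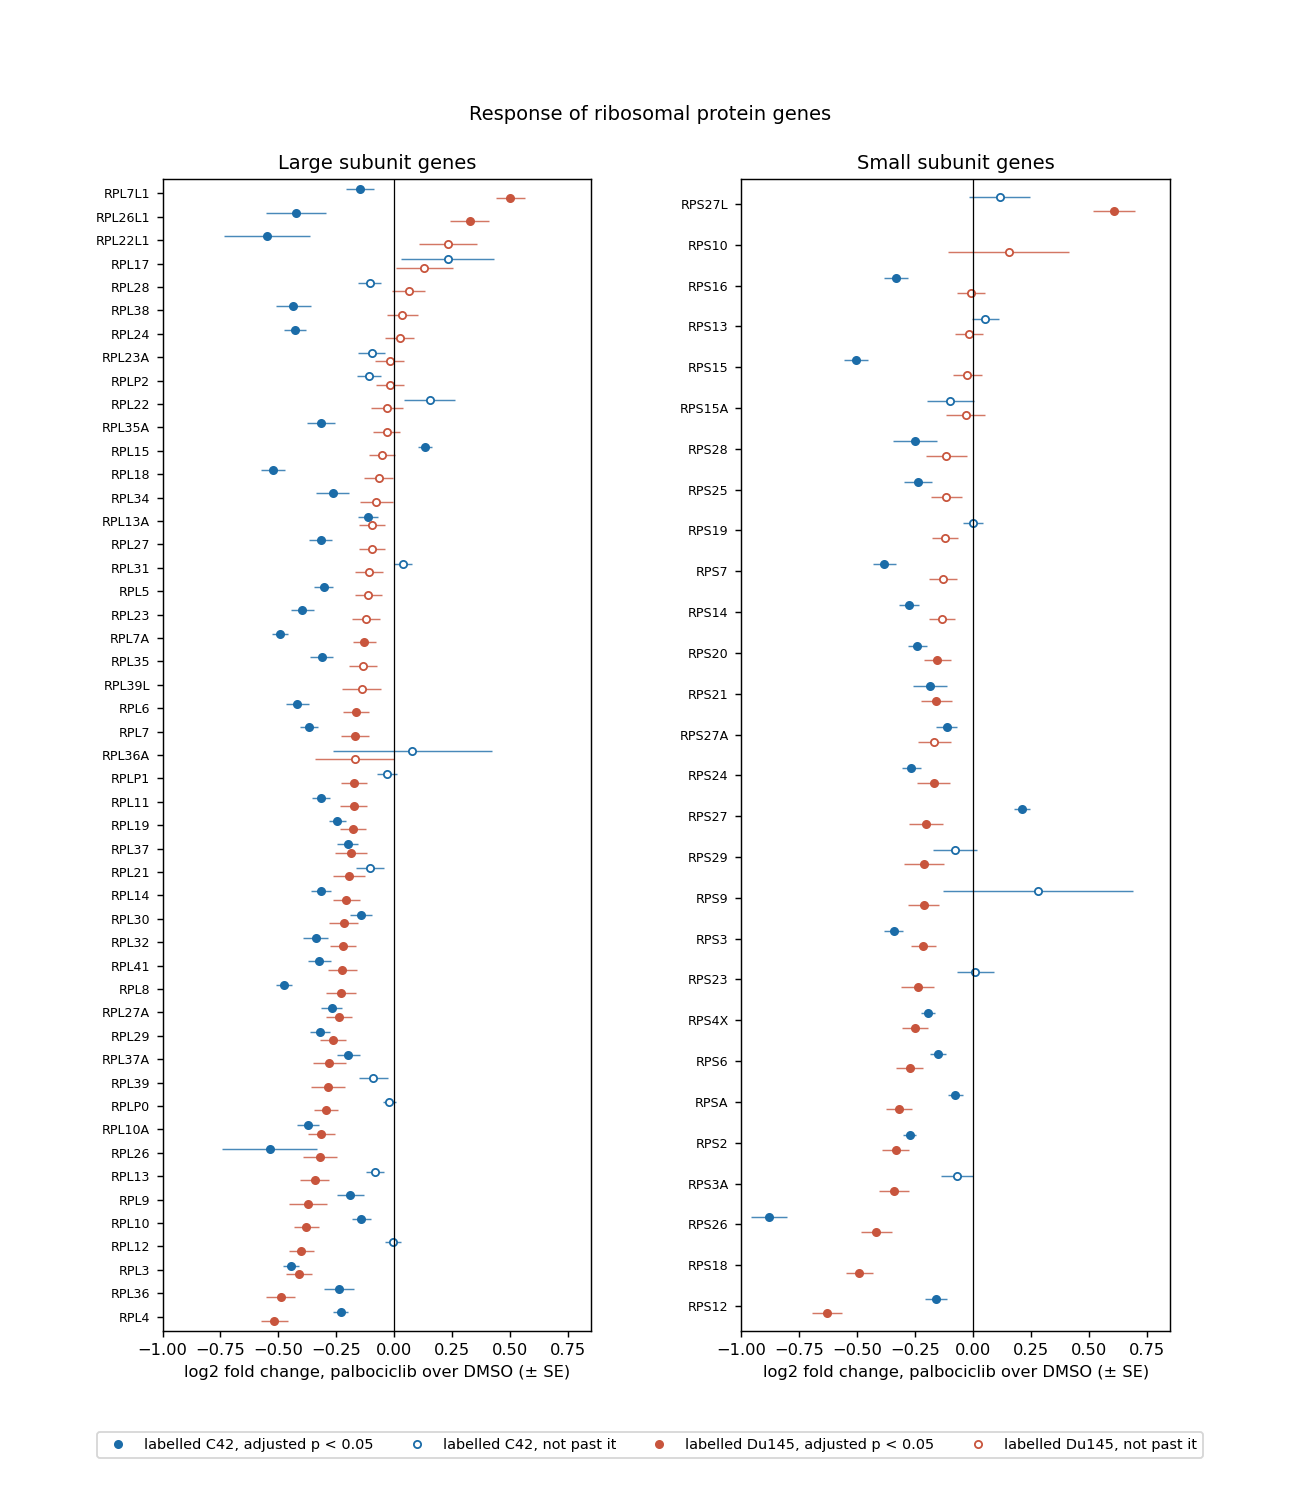
Fitted log2 fold change (palbociclib over DMSO, ± SE) of 77 members tested in Du145, large subunit genes on the left and small on the right, ordered by the Du145 value. Filled points passed an adjusted p of 0.05 and open points did not; most points of both lines lie left of 0, and the filled Du145 points to the right of it are RPL7L1, RPL26L1 and RPS27L.

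CPM of the palbociclib and DMSO libraries did not overlap for 53 of 78 tested members in C42, against 66.1% of all genes tested, and for 55 of 82 in Du145, against 62.7%. Of all genes tested, edgeR called 52.0% in C42 and 58.1% in Du145 in either direction, so neither a call nor groups without overlap sets a member apart. The log2 fold changes of members had an SD of 0.20 in each line, against 0.63 over all genes tested in C42 and 0.76 in Du145. Most members are abundant and most genes tested are not. No SD was computed for other genes of like level, so the narrower spread is not shown to be particular to the family. Among genes of at least 100 CPM, where 37.5% of all genes were called lower in C42 and 26.7% in Du145, 49 of 65 members were lower in C42 and 43 of 72 in Du145. The members' medians at that level were -0.24 and -0.18, against 0.0099 and 0.12 for the other genes.

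**Figure D3:**
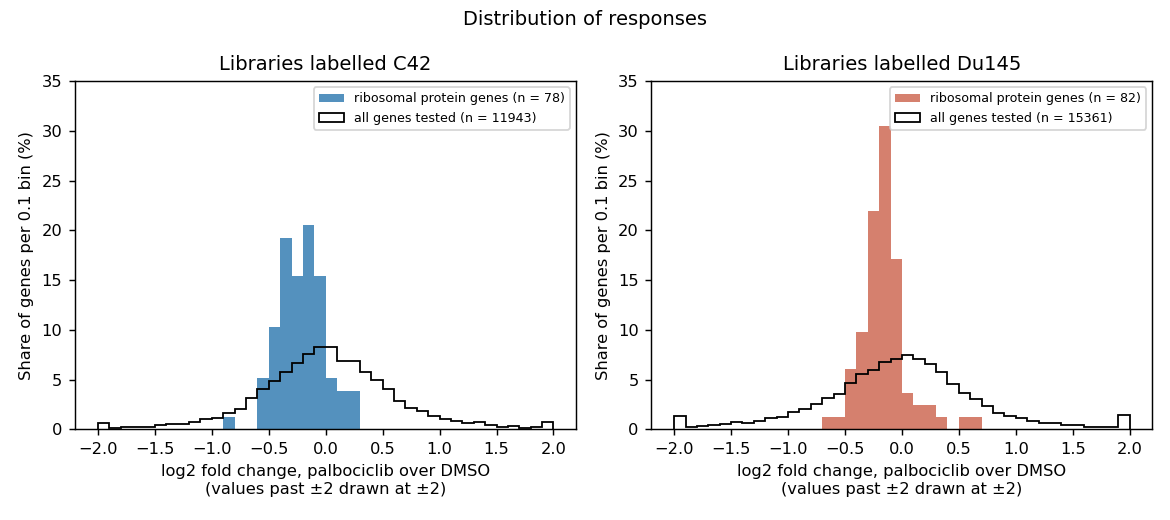
Share of genes (%) per bin of 0.1 in log2 fold change (palbociclib over DMSO), for ribosomal protein genes (filled) and all genes tested (line), in C42 (left, 78 members of 11943 genes) and Du145 (right, 82 members of 15361 genes). The members gather in a narrow band just below 0, while all genes tested, most of them less abundant, spread widely on both sides.

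Of the 78 members tested in both lines, 32 were lower in both, where 8.67% of the 11007 genes tested in both lines were. Whether the lines share members beyond their separate counts was not tested. Of the others, 20 were lower in C42 and not called in Du145, 10 were lower in Du145 and not called in C42, and 11 were called in neither. The 2 sets of log2 fold changes had a Pearson correlation of 0.092 and a Spearman correlation of -0.008 across 78 members, which are not independent replicates. The points share their libraries and controls within each line. The mean levels did go together, with a Spearman correlation of 0.829 over 82 members.

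The difference between lines (Du145 log2 fold change minus the C42 one) was tested directly, as the interaction term of 1 joint fit of both lines. That fit has its own scaling, so its values differ slightly from subtracting those of the separate fits. Of 82 members, 21 had a higher and 7 a lower value in Du145 at an adjusted p under 0.05, where 18.5% of 18139 genes were higher and 15.1% lower. The split by direction depends on scaling. Over all genes, 3347 were higher and 2735 lower, but 2765 higher and 3295 lower with library totals, where 26 members were called. The 4 largest in the higher direction were all paralogs: RPL22L1 (difference 0.82 ± 0.23 SE, edgeR adjusted p = 0.00531), RPL26L1 (0.78 ± 0.17 SE, edgeR adjusted p = 0.000273), RPL7L1 (0.69 ± 0.0998 SE, edgeR adjusted p = 3.24e-07) and RPS27L (0.53 ± 0.18 SE, edgeR adjusted p = 0.0234). In the lower direction stood RPS12 (-0.43 ± 0.095 SE, edgeR adjusted p = 0.000309), RPS27 (-0.38 ± 0.093 SE, edgeR adjusted p = 0.00117), RPL12 (-0.36 ± 0.074 SE, edgeR adjusted p = 0.000123) and RPL4 (-0.25 ± 0.077 SE, edgeR adjusted p = 0.00924). Of the 77 members other than paralogs, 17 were higher and 7 lower. Among those called higher, RPS15, RPL38 and RPS26, at 0.52, 0.51 and 0.50, came close behind RPS27L. Leaving out C42 DMSO replicate 1 leaves 1 DMSO library in C42. The difference was then 0.73 for RPL22L1, -0.19 for RPL4 and 0.26 for RPS27L. RPS27L had an adjusted p of 0.0973 without C42 palbociclib replicate 2, 0.0791 with library totals and 0.0503 with DESeq2. Without both Du145 libraries numbered 3 the count of members was 43, against 28 with all libraries. The share of all genes tested was then 48%, against 33.5%.

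RPL12, which binds near the base of the ribosomal stalk (chr9:127447674-127451405, minus strand), had 1083, 1096 and 1032 CPM in palbociclib libraries, against 1405, 1458 and 1446 CPM in DMSO libraries in Du145. These groups are apart (log2 fold change -0.40 ± 0.055 SE, edgeR adjusted p = 5.91e-06). In C42 it had 635, 638 and 614 CPM in palbociclib libraries, against 607 and 615 CPM in DMSO libraries, which overlap (log2 fold change -0.0054 ± 0.036 SE, edgeR adjusted p = 0.917).

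**Figure D4:**
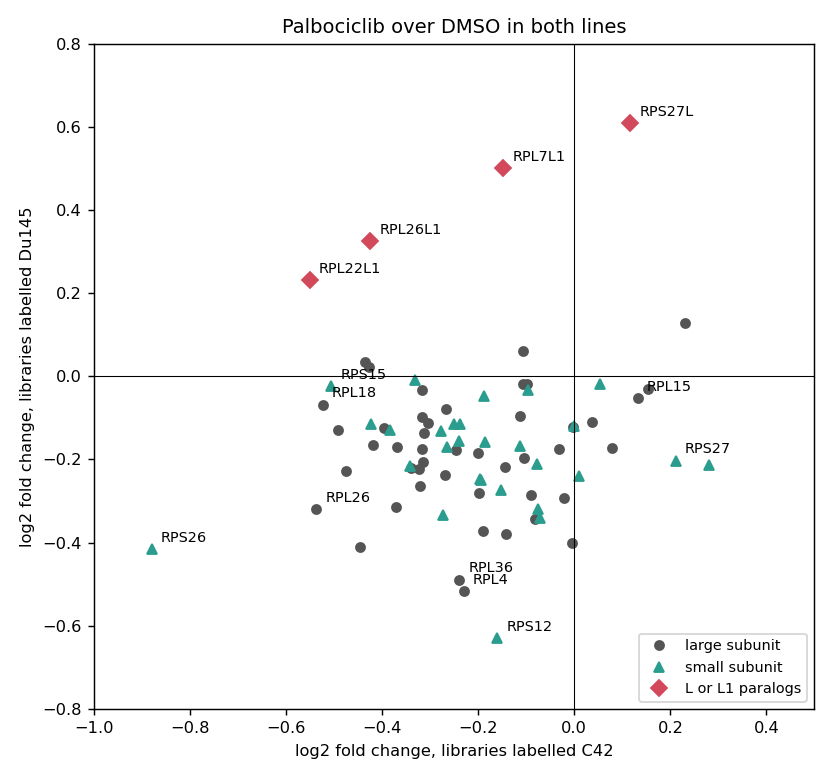
Log2 fold change (palbociclib over DMSO) of the 78 members tested in both lines, C42 on the horizontal and Du145 on the vertical axis, by subunit and with the L and L1 paralogs marked. The 4 paralogs sit at the top with values above 0 in Du145, RPS26 lies furthest left, and RPS12 lies lowest.

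All 3 members called higher in Du145 were paralogs, and none of the 77 other members tested there was. Of the 7 paralogs, 5 were tested in Du145, with a median log2 fold change of 0.32, and 4 in C42, with 3 of them lower and a median of -0.29. The paralogs are encoded apart from their parents, on other chromosomes in all of the pairs described next.

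RPL7L1, a homolog of RPL7 with a role in ribosome assembly (chr6:42879618-42889925, plus strand), had 283, 282 and 261 CPM in palbociclib libraries, against 202, 198 and 193 CPM in DMSO libraries in Du145. Every palbociclib library was above every DMSO library (log2 fold change 0.50 ± 0.062 SE, edgeR adjusted p = 1.98e-06). In C42 it had 183, 176 and 207 CPM in palbociclib libraries, against 195 and 213 CPM in DMSO libraries, and these groups overlap, with 1 palbociclib library between the DMSO libraries (log2 fold change -0.15 ± 0.059 SE, edgeR adjusted p = 0.0312). That C42 call is weak: the adjusted p was 0.121 without palbociclib replicate 1, 0.219 without palbociclib replicate 2, 0.271 without DMSO replicate 2, 0.149 with library totals and 0.211 with DESeq2.

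The parent RPL7, a large subunit protein (chr8:73290267-73295789, minus strand), had 737, 766 and 679.7 CPM in palbociclib libraries, against 826, 879 and 791 CPM in DMSO libraries in Du145 (log2 fold change -0.17 ± 0.061 SE, edgeR adjusted p = 0.024) and 657, 659 and 747 CPM in palbociclib libraries, against 865 and 859.8 CPM in DMSO libraries in C42 (log2 fold change -0.37 ± 0.040 SE, edgeR adjusted p = 1.61e-09). Parent and paralog therefore carried opposite calls in Du145. The Du145 call of RPL7 was lost on leaving out palbociclib replicate 1 or 3 or DMSO replicate 1 or 2, with an adjusted p of 0.0550, 0.0603, 0.0530 and 0.119.

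RPS27L, which differs from RPS27 in a few residues (chr15:63125872-63158021, minus strand), had 73.5, 76.7 and 66.9 CPM in palbociclib libraries, against 51.8, 52.5 and 40.5 CPM in DMSO libraries in Du145. The groups do not overlap (log2 fold change 0.61 ± 0.091 SE, edgeR adjusted p = 1.69e-05). In C42 it had 40.8, 31.8 and 39.96 CPM in palbociclib libraries, against 38.7 and 28.2 CPM in DMSO libraries, with overlap (log2 fold change 0.12 ± 0.13 SE, edgeR adjusted p = 0.479). Its parent RPS27, called higher in C42 above, had 521, 508 and 503 CPM in palbociclib libraries, against 641, 643 and 511 CPM in DMSO libraries in Du145 (log2 fold change -0.20 ± 0.072 SE, edgeR adjusted p = 0.0228), where DMSO replicate 3 lay among the palbociclib libraries. RPS27 was thus the 1 member called higher in C42 and lower in Du145. Its Du145 adjusted p was 0.0533 and 0.0800 without palbociclib replicate 1 or 2, and 0.128 and 0.115 without DMSO replicate 1 or 2.

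RPL26L1, nearly identical in protein to RPL26 (chr5:172958729-172969771, plus strand), had 45.7, 43.7 and 48.8 CPM in palbociclib libraries, against 37.7, 40.4 and 34.2 CPM in DMSO libraries in Du145, without overlap (log2 fold change 0.32 ± 0.084 SE, edgeR adjusted p = 0.00278). In C42 it had 34.6, 38.3 and 25.2 CPM in palbociclib libraries, against 40.98 and 42.8 CPM in DMSO libraries (log2 fold change -0.42 ± 0.13 SE, edgeR adjusted p = 0.00436). The C42 values are lower in all 3 palbociclib libraries, but the adjusted p was 0.127 without palbociclib replicate 3, where the log2 fold change was -0.24, and 0.123 with DESeq2. RPL26 itself was lower in Du145, with 59.03, 61.02 and 56.1 CPM in palbociclib libraries, against 70.6, 80.1 and 73.00 CPM in DMSO libraries (log2 fold change -0.32 ± 0.075 SE, edgeR adjusted p = 0.00135). RPL26L1 and RPL7L1 were the 2 members called lower in C42 and higher in Du145.

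RPL22L1, known in mice to take the place of RPL22 in the ribosome (chr3:170864875-170870483, minus strand), had 13.5, 14.2 and 13.9 CPM in palbociclib libraries, against 20.6 and 18.6 CPM in DMSO libraries in C42 (log2 fold change -0.55 ± 0.18 SE, edgeR adjusted p = 0.00937). It had 25.7, 19.6 and 17.4 CPM in palbociclib libraries, against 17.5, 17.8 and 18.9 CPM in DMSO libraries in Du145 (log2 fold change 0.23 ± 0.12 SE, edgeR adjusted p = 0.117). The C42 libraries are apart while the Du145 ones overlap, and the adjusted p was 0.111 in C42 without DMSO replicate 1 and 0.141 there with DESeq2, and 0.0101 in Du145 without palbociclib replicate 3. Its parent RPL22 was called in neither line, with log2 fold changes of 0.15 in C42 (adjusted p = 0.245) and -0.031 in Du145 (adjusted p = 0.719).

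**Figure D5:**
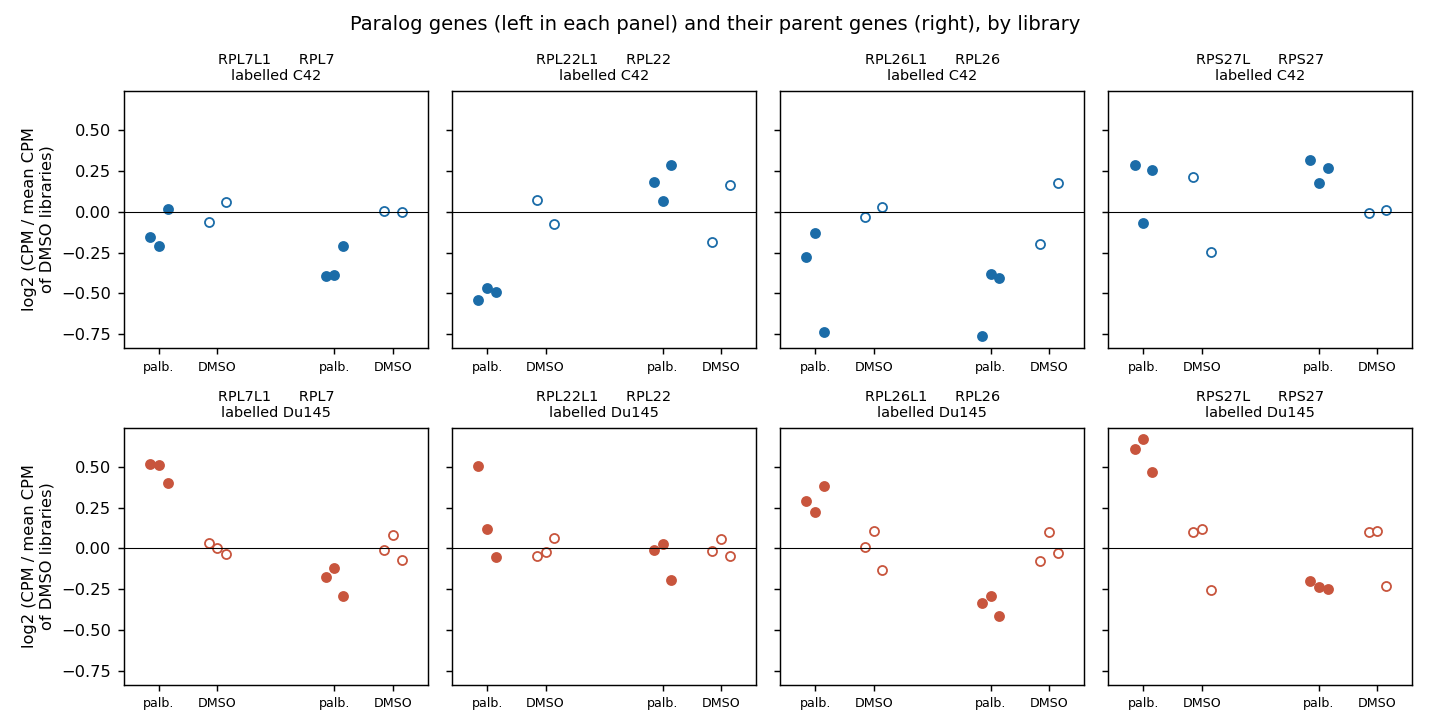
Log2 of CPM over the mean CPM of the DMSO libraries of the same line, for 4 paralogs (left in each panel) and their parents (right), with C42 above and Du145 below; each point is 1 library, filled for palbociclib and open for DMSO. In Du145 the palbociclib points of RPL7L1, RPL26L1 and RPS27L lie above all their DMSO points while those of RPL7, RPL26 and, for all but 1 DMSO library, RPS27 lie below.

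The remaining paralogs had few or no counts in at least 1 line. RPL39L, known for expression in testis and in cancer cells, was well above 0 in Du145, with 33.6, 36.4 and 38.3 CPM in palbociclib libraries, against 39.4, 42.8 and 39.3 CPM in DMSO libraries (log2 fold change -0.14 ± 0.083 SE, edgeR adjusted p = 0.157). In C42 libraries it had 0, 0 and 0 counts in palbociclib libraries, against 0 and 1 counts in DMSO libraries. RPL10L, a testis gene, had 0, 0 and 0 counts in palbociclib libraries, against 1 and 0 counts in DMSO libraries in C42 and 0 counts in every Du145 library, which allows up to 3 counts per library. RPL3L, a heart and skeletal muscle gene, had 0 counts in every C42 library and 9, 4 and 5 counts in palbociclib libraries, against 7, 3 and 14 counts in DMSO libraries in Du145. The parents RPL39, RPL10 and RPL3 are widely expressed.

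RPL3, near the peptidyl transferase center, was lower in both lines (log2 fold change -0.45 ± 0.034 SE, edgeR adjusted p = 4.27e-20 in C42, log2 fold change -0.41 ± 0.055 SE, edgeR adjusted p = 4.83e-06 in Du145). RPL10, a late-joining large subunit protein, was also lower in both (log2 fold change -0.14 ± 0.040 SE, edgeR adjusted p = 0.002 in C42, log2 fold change -0.38 ± 0.055 SE, edgeR adjusted p = 1.28e-05 in Du145). RPL39, at the exit tunnel, was called only in Du145 (log2 fold change -0.29 ± 0.072 SE, edgeR adjusted p = 0.00244), with a C42 value of -0.091 (adjusted p = 0.223), and the difference between lines did not pass (adjusted p = 0.262). RPL36A had few counts, 3.32 to 7.27 CPM in C42 and 6.4 to 10.5 CPM in Du145, and was called in neither line (adjusted p = 0.868 and 0.410).

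Of the 3 stalk proteins, RPLP0 and the acidic RPLP1 and RPLP2 that recruit translation factors, 2 were called lower in Du145 and 0 in C42. In Du145, RPLP0 had 1784, 1805 and 1717 CPM in palbociclib libraries, against 2189.6, 2236 and 2185 CPM in DMSO libraries. It was lower without overlap (log2 fold change -0.29 ± 0.052 SE, edgeR adjusted p = 0.000104), and RPLP1 was lower too (log2 fold change -0.17 ± 0.055 SE, edgeR adjusted p = 0.0115). RPLP2 was not called (log2 fold change -0.019, adjusted p = 0.803). In C42 none of the 3 passed, with log2 fold changes of -0.021, -0.032 and -0.11 (adjusted p = 0.569, 0.554 and 0.0726), and RPLP0 differed between the lines (-0.24 ± 0.069 SE, edgeR adjusted p = 0.00562).

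RPL5 and RPL11 form a particle with the 5S ribosomal RNA that can also bind MDM2. In C42 RPL5 had 436, 474 and 458 CPM in palbociclib libraries, against 559 and 529 CPM in DMSO libraries (log2 fold change -0.30 ± 0.040 SE, edgeR adjusted p = 6.01e-10). RPL11 had 502, 493 and 533 CPM in palbociclib libraries, against 607 and 626 CPM in DMSO libraries there (log2 fold change -0.32 ± 0.038 SE, edgeR adjusted p = 2.57e-11). Both pairs of groups are apart in C42. In Du145 RPL11 was called lower (log2 fold change -0.18 ± 0.059 SE, edgeR adjusted p = 0.0157) and RPL5 was not (log2 fold change -0.11 ± 0.059 SE, edgeR adjusted p = 0.111). RPL11 had an adjusted p of 0.0673 and 0.0643 without Du145 DMSO replicate 1 or 2, and RPL5 one of 0.0370 without Du145 DMSO replicate 3.

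RPS6, the small subunit protein phosphorylated by the S6 kinases, was lower in both lines. It had 693, 708 and 716 CPM in palbociclib libraries, against 757 and 761 CPM in DMSO libraries in C42 (log2 fold change -0.15 ± 0.034 SE, edgeR adjusted p = 0.000124). It had 606, 619 and 624 CPM in palbociclib libraries, against 790.2, 778 and 705 CPM in DMSO libraries in Du145 (log2 fold change -0.27 ± 0.058 SE, edgeR adjusted p = 0.000618). The groups were apart in each line. RPS4X, an X-linked small subunit protein, was lower in both as well (log2 fold change -0.19 ± 0.029 SE, edgeR adjusted p = 2.13e-08 in C42, log2 fold change -0.25 ± 0.057 SE, edgeR adjusted p = 0.00103 in Du145).

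RPSA, also known as a laminin receptor, had 1244, 1293 and 1218 CPM in palbociclib libraries, against 1544, 1626 and 1594 CPM in DMSO libraries in Du145. It fell there (log2 fold change -0.32 ± 0.055 SE, edgeR adjusted p = 6.92e-05), while its C42 call (log2 fold change -0.076 ± 0.032 SE, edgeR adjusted p = 0.0379) rested on groups that overlap in CPM. The C42 adjusted p was 0.110 and 0.193 without palbociclib replicate 2 or 3, 0.0908 and 0.0725 without DMSO replicate 1 or 2, and 0.453 with library totals. RPS27A, made as a fusion of ubiquitin with a small subunit protein, was called lower in C42 (log2 fold change -0.11 ± 0.046 SE, edgeR adjusted p = 0.0333) and not in Du145 (log2 fold change -0.17 ± 0.071 SE, edgeR adjusted p = 0.0503). In C42 its adjusted p was 0.191 and 0.0686 without palbociclib replicate 1 or 2 and 0.505 without DMSO replicate 1; in Du145 it was 0.0379 without palbociclib replicate 2 and 0.00894 without DMSO replicate 3.

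RPL7A, a large subunit protein whose introns hold 4 small nucleolar RNAs, had 579, 579 and 626 CPM in palbociclib libraries, against 811 and 813 CPM in DMSO libraries in C42. This was a fall without overlap (log2 fold change -0.49 ± 0.036 SE, edgeR adjusted p = 4.82e-21). In Du145 it had 2029, 2004 and 1957 CPM in palbociclib libraries, against 2234, 2217 and 2207 CPM in DMSO libraries (log2 fold change -0.13 ± 0.051 SE, edgeR adjusted p = 0.039). The Du145 call was lost on leaving out any 1 of the 6 libraries, with an adjusted p of 0.0523 to 0.122. RPS12, the largest fall in Du145, was lower in C42 too (log2 fold change -0.16 ± 0.047 SE, edgeR adjusted p = 0.0034), with an adjusted p of 0.0933 without palbociclib replicate 2 and 0.0682 with DESeq2.

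A few members were near 0 in C42 although their proteins belong to every ribosome. RPS18 had 3, 6 and 6 counts in palbociclib libraries, against 7 and 1 counts in DMSO libraries in C42, whereas in Du145 it had 1529.8 CPM per kb of its principal transcript, averaged over the libraries. RPS10 had 7, 5 and 6 counts in palbociclib libraries, against 2 and 4 counts in DMSO libraries. RPS10 was low in Du145 as well, at 1.63 to 2.43 CPM. Both were too low to test in C42, as were RPL3L, RPL10L and RPL39L. RPS9 was tested there on 10, 11 and 15 counts in palbociclib libraries, against 13 and 8 counts in DMSO libraries and did not pass (adjusted p = 0.588), and in Du145 it was lower (log2 fold change -0.21 ± 0.067 SE, edgeR adjusted p = 0.0114). The cause of these low counts was not tested, and no difference between lines in the response is given for these genes.

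Per length, the highest levels over all libraries of a line were RPS27 in C42, at 1934 CPM per kb, and RPS2 in Du145, at 3068 CPM per kb. RPLP0 followed in C42 at 1399 CPM per kb and RPL35 in Du145 at 2771 CPM per kb. These paralogs stood far below those: RPL7L1 had 43.5 in C42 and 52.8 in Du145, RPL26L1 had 49.02 and 56.3, and RPS27L had 5.58 and 9.38 CPM per kb. Some other members were as low per kb in C42, such as RPL37 at 42.7 and RPL22 at 24.7 CPM per kb, although RPL37 averaged 328 CPM over the C42 libraries. The length used was the longest principal transcript of each gene, 6434 bases for RPS27L, 359 for RPS27 and 7686 for RPL37. Values per kb depend on that choice. RPL26L1 nevertheless exceeded its parent RPL26 in C42, where RPL26 had 15.6 CPM per kb, and was below it in Du145, where RPL26 had 76.6.

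Members share features that bear on how their reads were counted. The tables name 1149 pseudogene loci for 77 members, 28 members host 59 small nucleolar RNAs, and 38 overlap a gene on the opposite strand, including RPS26, RPL18, RPL4 and RPS27L (the last 3 overlap SPHK2, ZWILCH and LACTB). These overlaps are of whole gene spans, and overlap of exons was not looked at. The C42 counting was on exons and did not use strand, per the file header. Reads from stretches where exons of both genes overlap therefore cannot be told apart there. Pseudogenes named for members held 0.128% of counts with palbociclib and 0.143% with DMSO in C42, and 0.274% and 0.326% in Du145. Their counts exceeded those of the parent for RPS10, RPS28 and RPL9 in Du145 (90.5, 70.8 and 59.2% of the joint counts) and for RPS10, RPS18 and RPS28 in C42 (79.3, 71.6 and 50.5%). The values of RPS28 and RPL9 are uncertain for that reason. Pseudogenes held over 10% of the joint counts for 10 members in C42 and 9 in Du145. Among these were RPL26 (32.6% in C42), RPL39 and RPL10 (26.7 and 21.4% in Du145), and RPL7 and RPS2 in both lines (14.8 and 16.3%, and 26.4 and 22.7%, C42 first). Their values carry the same limit to a lesser degree. RPS28 was lower in C42 (adjusted p = 0.0243) and not called in Du145 (adjusted p = 0.277), and RPL9 was lower in both lines (log2 fold change -0.19 ± 0.058 SE, edgeR adjusted p = 0.00432 in C42, log2 fold change -0.37 ± 0.081 SE, edgeR adjusted p = 0.00072 in Du145).

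The response was counted apart for members with and without a pyrimidine run at a listed start. With a run, 28 of 45 tested members were lower and 1 higher in C42 (median -0.16), and 27 of 47 were lower and 0 higher in Du145 (median -0.17). Without one, 15 of 19 were lower and 1 higher in C42 (median -0.25), and 10 of 19 were lower and 3 higher in Du145 (median -0.17). The 3 higher in Du145 without a run are the paralogs RPL7L1, RPL26L1 and RPS27L.

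The family was set beside 4 lists of related genes, whose values are means ± SD over 3 palbociclib and 2 DMSO libraries in C42 and 3 of each in Du145. Over all genes tested, 26.7% were called lower and 25.3% higher in C42, and 29.2% and 28.8% in Du145. Of the 3 ribosomal proteins with other names FAU, RPL36AL and RACK1, 2 were lower and 0 higher in C42, and the scaffold protein RACK1 averaged 675 ± 18 CPM with palbociclib and 787 ± 7.8 CPM with DMSO (log2 fold change -0.27 ± 0.035 SE, edgeR adjusted p = 2.63e-10). In Du145 0 were lower and 1 was higher, RPL36AL, a near copy of RPL36A, which averaged 93.1 ± 7.98 CPM with palbociclib and 68.2 ± 6.5 CPM with DMSO (log2 fold change 0.47 ± 0.083 SE, edgeR adjusted p = 8.95e-05).

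Of 23 other mRNAs known for a TOP start, chiefly translation factors, 22 were tested. In C42, 10 were lower and 3 higher (median -0.10), where 26.7% and 25.3% of all genes tested were. HNRNPA1, an RNA-binding splicing factor, averaged 656 ± 25 CPM with palbociclib and 1268 ± 12 CPM with DMSO (log2 fold change -0.99 ± 0.033 SE, edgeR adjusted p = 1.11e-42), and GAS5, a host of small nucleolar RNAs, averaged 158 ± 8.9 CPM with palbociclib and 93.2 ± 7.4 CPM with DMSO (log2 fold change 0.72 ± 0.072 SE, edgeR adjusted p = 2.27e-14). In Du145, 10 were lower and 6 higher (median -0.12). The elongation factor EEF1B2 averaged 164 ± 12 CPM with palbociclib and 300.4 ± 14 CPM with DMSO (log2 fold change -0.85 ± 0.068 SE, edgeR adjusted p = 7.96e-09), and the helicase EIF4A2 averaged 209.7 ± 18 CPM with palbociclib and 351 ± 25 CPM with DMSO (log2 fold change -0.72 ± 0.071 SE, edgeR adjusted p = 1.28e-07). For higher calls in Du145, 6 of 22 is near the 28.8% of all genes tested.

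Chaperones that carry single ribosomal proteins to the nucleolus, with the nucleolar proteins NCL and NPM1, responded differently in the lines for most of the list. In C42, 6 of 9 were lower and 0 higher (median -0.55), where 26.7% of all genes tested were lower. GRWD1, which escorts RPL3, averaged 33.7 ± 0.77 CPM with palbociclib and 56.6 ± 3.1 CPM with DMSO (log2 fold change -0.80 ± 0.11 SE, edgeR adjusted p = 5.19e-09), and NCL averaged 564 ± 13 CPM with palbociclib and 1033 ± 1.1 CPM with DMSO (log2 fold change -0.92 ± 0.034 SE, edgeR adjusted p = 2.67e-39). In Du145, 2 of 10 were lower and 7 higher (median 0.34), where 28.8% of all genes tested were higher. RRS1, which brings in the particle of RPL5 and RPL11, averaged 85.04 ± 4.8 CPM with palbociclib and 45.2 ± 2.7 CPM with DMSO (log2 fold change 0.93 ± 0.078 SE, edgeR adjusted p = 1.30e-08), and TSR2, the escort of RPS26, averaged 55.3 ± 3.6 CPM with palbociclib and 37.2 ± 0.86 CPM with DMSO (log2 fold change 0.60 ± 0.080 SE, edgeR adjusted p = 5.06e-06). PDCD2, the escort of RPS2, averaged 24.01 ± 1.1 CPM with palbociclib and 44.6 ± 1.2 CPM with DMSO (log2 fold change -0.87 ± 0.082 SE, edgeR adjusted p = 6.56e-08). The difference between lines passed for 9 of the 10, in the higher direction for 8 and the lower for 1, where it passed for 33.5% of all genes.

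Of 12 regulators of TOP mRNA translation, 2 had a lower and 5 a higher response in Du145 than in C42 by the test of the difference. Over all genes tested 15.1% were lower and 18.5% higher. EIF4EBP1, the repressor of the cap-binding protein, averaged 73.6 ± 8.6 CPM with palbociclib and 44.9 ± 2.98 CPM with DMSO in C42 (log2 fold change 0.65 ± 0.10 SE, edgeR adjusted p = 1.31e-07) and 126 ± 3.7 CPM with palbociclib and 208 ± 6.5 CPM with DMSO in Du145 (log2 fold change -0.70 ± 0.066 SE, edgeR adjusted p = 6.03e-08). EIF4E, the cap-binding protein itself, averaged 96.96 ± 3.6 CPM with palbociclib and 117 ± 5.6 CPM with DMSO in C42 (log2 fold change -0.31 ± 0.074 SE, edgeR adjusted p = 0.000228) and 67.4 ± 13 CPM with palbociclib and 36.4 ± 3.2 CPM with DMSO in Du145 (log2 fold change 0.91 ± 0.11 SE, edgeR adjusted p = 2.05e-06). Each of these 2 genes was called in opposite directions in the lines. Of the 12 genes, 2 were lower and 2 higher in C42 (median -0.0055), where 26.7% and 25.3% of all genes tested were. In Du145, 3 were lower and 5 higher (median 0.10), where 29.2% and 28.8% of all genes tested were. LARP1, which binds the TOP start, was lower in C42 (log2 fold change -0.20 ± 0.044 SE, edgeR adjusted p = 8.81e-05) and higher in Du145 (log2 fold change 0.31 ± 0.064 SE, edgeR adjusted p = 0.000484).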

How the data were processed

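The authors deposited raw read counts per gene, 1 table per line. The counts labelled C42 came from featureCounts 2.0.1 on exons of Ensembl 107 with no strand setting, per the file headers; no label or header names the aligner or counter behind the Du145 counts. Coordinates come from the Du145 table, whose build is hg38 in the submitters' processing notes. Each line was fitted alone over its whole table with edgeR 4.0.16 in R 4.3.3: filterByExpr, TMM scaling, the robust quasi-likelihood test and Benjamini-Hochberg adjustment at 0.05. The difference between lines was the interaction term of 1 fit over the 56747 genes in both tables. CPM are counts scaled to a library total of 1000000. Pseudogenes were matched by name, and transcript lengths are from GENCODE. Alternatives were other scalings, filters, DESeq2 1.42.0, a replicate block and leaving libraries out; the fits were tested on simulated counts. Named members were the paralog pairs, fixed functional groups and the largest changes per line. Some genes are not reported here by name or drawn by gene. Members, lists and this rule were chosen with earlier results of these data known. Totals of 2608851 to 3489659 counts (C42) make low members less precise there than in Du145.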

Additional observations from a re-analysis of the deposited data

Results flagged for a closer look

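The response to palbociclib differed between the lines, by the test of the difference itself, for 8 members named by the rule. In the joint fit of both lines, the Du145 log2 fold change minus the C42 one was 0.82 for RPL22L1, 0.78 for RPL26L1, 0.69 for RPL7L1 and 0.53 for RPS27L, all paralogs. It was -0.43 for RPS12, -0.38 for RPS27, -0.36 for RPL12 and -0.25 for RPL4, all members of the standard ribosome. These 8 are the ends of the ranking and do not divide paralogs from other members. Of the 77 other members tested, 17 were called higher and 7 lower. Of all 82 members tested, 21 were higher and 7 lower, where 18.5% and 15.1% of all genes tested were. Without C42 DMSO replicate 1 the adjusted p was 0.0635 for RPL22L1, 0.138 for RPL4 and 0.470 for RPS27L, whose difference was then 0.26. Within a line, the C42 calls of RPL7L1, RPL26L1, RPL22L1 and RPS12 and the Du145 call of RPS27 were lost under some settings. The lines also differ in depth, in the table they were counted in and in the number of DMSO libraries, and the part of these in the difference was not tested.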

How the results depend on the processing

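Counts of members called lower stayed within 1.5 times of those reported, at 39 (DESeq2) to 54 in C42 and 33 to 57 in Du145. Members higher in Du145 numbered 6 without both libraries numbered 3 and 1 among those of at least 100 CPM, a level chosen after seeing the data. Members that differed between lines numbered 43 without both libraries numbered 3, and 18 (without C42 DMSO replicate 1) to 32 with 1 library left out. The C42 median of large subunit genes was -0.20 with library totals, -0.28 with no filter, -0.23 with the stricter filter and -0.27 to -0.23 with 1 library left out. That of small subunit genes was -0.14, -0.20 and -0.16 under the same settings and -0.20 to -0.17 with 1 library left out. The Du145 small subunit median was -0.21 to -0.14 with 1 library left out. The Du145 share of counts was lower by 1.05 points without mitochondrially encoded genes (-1.05). Over all genes, DESeq2 called 3793 in C42, against 6206 with edgeR. Of 986 alternatives over 72 gene results, 56 lost a call, 16 gained one and 0 turned direction; the cause was not tested. Deviations of same-numbered libraries correlated by 0.007 and 0.029 in C42 and 0.02, 0.036 and 0.128 in Du145 over all genes tested, and over members alone by 0.383 and 0.344 in C42 and -0.107, 0.11 and 0.205 in Du145. Not every pair passed 0.1 over all genes, and Du145 palbociclib replicate 1 correlated best with DMSO replicate 2, so the numbers were not taken to pair the samples, although both Du145 libraries numbered 3 stood apart. With the replicate block 51 members were lower in C42, 56 in Du145 and 35 differed between lines, with an adjusted p of 0.119 for RPL26L1 and 0.17 for RPSA in C42 and 0.00202 for RPL5, 0.0464 for RPL22L1 and 1.44e-05 for RPS27A in Du145. Of all genes tested, the block called 47.8% in C42 and 65.1% in Du145 in either direction, and 34.4% for the difference. Low counts in C42 limit members under about 20 CPM, such as RPL26 and RPL22L1.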
